A study of Mus musculus with 6 samples.

Results

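Retinoic acid is made from vitamin A and acts through nuclear receptors, and 10 genes of this pathway were followed by RNA sequencing of primary hepatic stellate cells from mice. The genes are Rdh10, Dhrs3, Aldh1a1, Aldh1a2, Cyp26b1, Rara, Rarb, Rarg, Rxra and Stra6. They were taken by symbol from a count table of 22966 genes, and all 10 were found there. The libraries were titled flox (n = 3) and Cre (n = 3), and these titles alone define the groups. The genotype entry, BucheHep, and the treatment entry, CCl4, were the same for all 6 libraries. CCl4 (carbon tetrachloride) is a liver toxin used to produce fibrosis. The design text names a Buche knockout in hepatocytes (Buche being its spelling for butyrylcholinesterase), and the series title concerns stellate cell activation and muscarinic signalling. The genotype entry does not separate flox from Cre. The promoter driving Cre, the age of the mice, the dose and duration of CCl4, any cell sorting and any pooling of animals are not stated in the labels. No label says that each library stands for its own animal, so every p-value rests on the spread from library to library, which may be technical.

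Stellate cells store most of the body's vitamin A as retinyl esters and lose these stores when they turn into myofibroblasts. Retinol enters some cells through the transporter STRA6. RDH10 oxidises retinol to retinal, and DHRS3 reduces retinal back to retinol. Retinal dehydrogenases of the ALDH1A family then make retinoic acid, and CYP26 enzymes degrade it. Retinoic acid binds the receptors RARA, RARB and RARG, which act as pairs with a retinoid X receptor such as RXRA. RXRA also pairs with other nuclear receptors, among them PPARs and liver X receptors.

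Receptor pairs bind DNA at direct repeats of a 6-base half-site. The promoters of Rarb and Cyp26a1 are shown because both genes are induced by retinoic acid and hold such a repeat. RefSeq promoter windows on GRCm38.p6, from 250 bases before to 50 bases after each annotated start, were searched on both strands. The half-site could be AGGTCA or any of 3 variants, of which AGTTCA is the first, GGGTCA differs at another base, and GGTTCA carries both differences. Any of these was accepted on each side, as direct repeats with 1, 2 or 5 bases between them. Of the 10 genes, 9 had at least 1 window, and Rdh10 had none. Capitals mark the half-sites, and each sequence is written 5′ to 3′ on the strand of the gene.

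Rarb, chr14:16575493-16575549, minus strand: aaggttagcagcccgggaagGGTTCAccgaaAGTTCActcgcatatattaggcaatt
Cyp26a1, chr19:37697756-37697812, plus strand: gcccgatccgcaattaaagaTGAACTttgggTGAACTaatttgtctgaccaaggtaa

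Both repeats had 5 bases between the half-sites. The Rarb repeat began at position -53 from the annotated start, and the Cyp26a1 repeat lay on the strand opposite to the gene, where TGAACT reads AGTTCA. Such a repeat was present in 32 of 32851 windows of that length (0.0974%), and a repeat of any of the 3 spacings in 193 (0.588%). The windows of the other 8 retinoic acid genes held none of these letter strings, which says nothing about binding elsewhere. Neither Rarb nor Cyp26a1 passed the test between the groups. Their values are given below.

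Each library held 37273142 to 41006722 counts. Of the 22966 genes, 14795 passed the filter on low counts and were tested with edgeR's quasi-likelihood F-test, and all 10 retinoic acid genes were among them. A log2 fold change is that of Cre relative to flox, with its standard error, and CPM (counts scaled to library size) are normalised by TMM, a scaling that allows for differences in RNA composition. Over all genes, 15.3% were called at a Benjamini-Hochberg adjusted p below 0.05, 6.35% as higher in Cre and 8.94% as lower. Without composition scaling the balance turned, to 1415 genes higher and 1066 lower. Of the 10 retinoic acid genes, 3 fell in the Cre libraries, Dhrs3, Rxra and Cyp26b1, and 0 rose. Without composition scaling 2 of them, Rxra and Cyp26b1, were lower and Aldh1a2 was higher. In DESeq2, which called 29.3% of all genes, 6 of the 10 passed. Groups did not overlap for 8 of the 10 genes, against 39.6% of all genes tested. The median log2 fold change of the 10 was -0.33, against 0.01 over all genes tested. In edgeR the calls rest on all of flox 1, flox 2, Cre 1 and Cre 2. Without any one of these, 0 genes of the whole table passed. In those fits 5 or 6 of the 10 genes were at an unadjusted edgeR p below 0.05. So were 3562 to 3978 of all genes tested, which numbered 15220 to 15264.

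Markers of stellate cells and of other cell types were present. Of 17 quiescent stellate markers tested, 3 rose and 0 fell, with a median of 0.31, and of 19 stellate activation markers 7 rose and 0 fell, with a median of 0.93. Dcn, a stellate matrix proteoglycan among the former, averaged 187 ± 24.5 FPKM (SD, n = 3) in flox and rose to 486 ± 184 FPKM in Cre (edgeR adjusted p = 0.0351). Lrat, the enzyme that esterifies retinol and defines vitamin A-storing stellate cells, was low, at 0.288 FPKM in flox and 0.129 FPKM in Cre. Macrophage and Kupffer cell markers were high. Of 24 such genes tested, 22 fell and 0 rose, with a median of -2.66. Their summed level ran from 12218 to 35812 CPM in flox, lowest in flox 3, and from 4420 to 5313 CPM in Cre, and none was at 0 in all libraries. Other leukocyte lists were by summed level also lowest among flox libraries in flox 3. Of 7 dendritic cell markers tested, 3 fell and 0 rose, with a median of -1.33. Of 10 T and NK cell markers 0 passed, of 6 B and plasma cell markers 1 rose and 1 fell, and of 3 neutrophil markers 1 fell. Of 13 mesothelial markers, 1 rose and 0 fell, with a median of 1.28. As a mean of log2 CPM they reached 6.29 in Cre 1 and 6.42 in Cre 2, whereas Cre 3, at 4.81, lay within the flox range of 4.55 to 5.07. Their summed level was 1779, 1591 and 887 CPM in Cre libraries 1 to 3, above the 570 to 776 CPM of flox in all 3. The 17 hepatocyte markers tested had a median of -0.72 and did not pass, and of 18 endothelial markers 1 fell. In bulk samples, fewer cells of a type and less RNA per cell cannot be told apart.

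FPKM (fragments scaled to gene length and library total) divide by gene length and allow levels to be compared between genes. On that scale Dhrs3 was the most abundant of the 10, at a mean of 63.5 FPKM over the 6 libraries, above 92.8% of the genes tested. Rxra followed at 31.8 FPKM. Dhrs3 exceeded Rxra in 6 of 6 libraries. Then came Rdh10 at 14.0 FPKM, Cyp26b1 at 12.8, Rarg at 11.5, Aldh1a2 at 10.2, Rara at 7.85, Aldh1a1 at 6.55 and Rarb at 5.06 FPKM. Most of these middle positions depended on the group. Cyp26b1 exceeded Rdh10 in 3 of 3 flox libraries, and Rdh10 exceeded Cyp26b1 in 3 of 3 Cre libraries. Rxra exceeded Rdh10 in 5 of 6 libraries, the exception being in the Cre group. Rarg exceeded Aldh1a2 in 3 of 3 flox libraries and in 1 of 3 Cre libraries. Rarb exceeded Aldh1a1 in 3 of 3 flox libraries and in 0 of 3 Cre libraries. Stra6 was last in 6 of 6 libraries, at 0.133 FPKM.

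**Figure D1:**
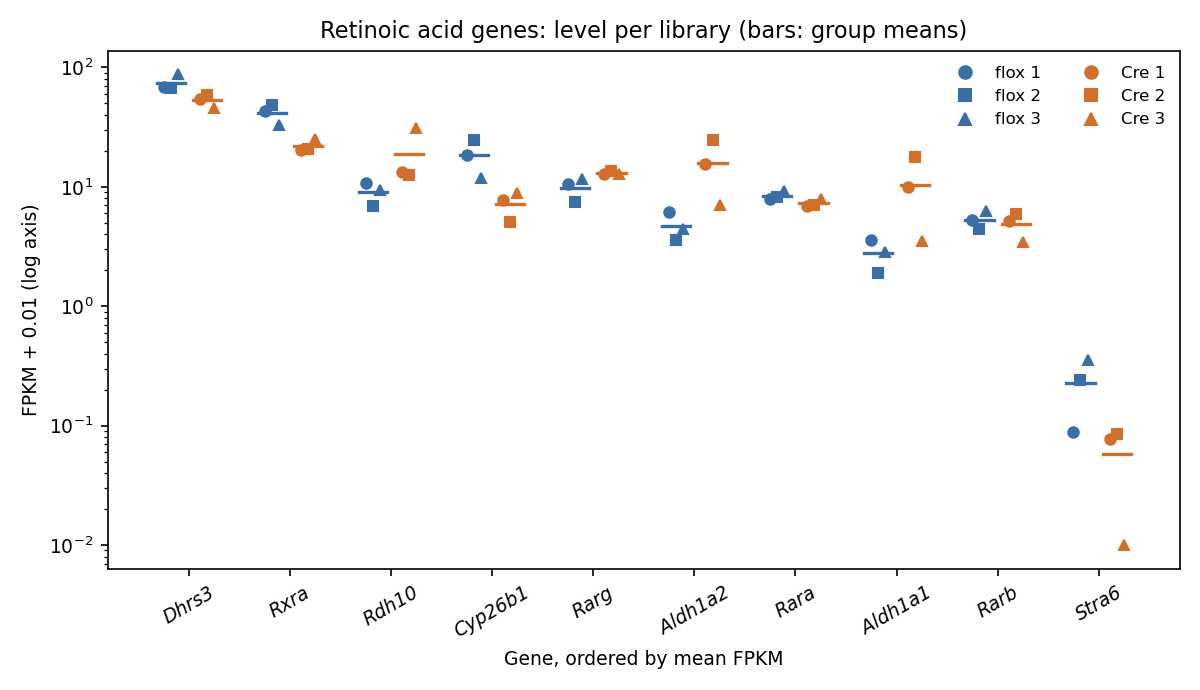
FPKM (log axis, with 0.01 added so that a value of 0 can be drawn) of the 10 genes in each of the 3 flox (blue) and 3 Cre (orange) libraries, with bars at the group means. Dhrs3 is highest throughout, Cyp26b1 and Rxra lie lower in every Cre library than in every flox library, and Stra6 lies far below the rest.

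Of the enzymes that interconvert retinol and retinal, Dhrs3 fell and Rdh10 missed the threshold. Dhrs3 (chromosome 4, 144892827 to 144928209 on GRCm38, plus strand), which turns retinal back into retinol, stood at 356, 355 and 418 CPM in flox libraries 1 to 3, respectively, and 243, 268 and 213 CPM in Cre libraries 1 to 3. Every Cre library lay below every flox library, and flox 3 was the highest. Flox averaged 376 ± 36.5 CPM (SD, n = 3) and Cre 241 ± 27.4 CPM, so the log2 fold change was -0.64 ± 0.13 (edgeR adjusted p = 0.0293), or 1.56 times lower. With no composition scaling, which shifts the median of all genes from 0.01 to 0.17, it was -0.49 and did not pass (edgeR adjusted p = 0.0753). Macrophage markers were lowest among flox libraries in flox 3, where Dhrs3 was highest. With their mean as a covariate Dhrs3 was at -1.08 (edgeR adjusted p = 0.172). That covariate separates the groups itself and left 2 genes called in the whole table. The macrophage part in the Dhrs3 value was not tested.

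Rdh10 (chromosome 1, 16105774 to 16133734, plus strand), which catalyses the opposite step from retinol to retinal, stood at 26.7, 17.6 and 21.5 CPM in flox libraries 1 to 3, respectively, and 28.3, 26.9 and 68.3 CPM in Cre libraries 1 to 3. The groups did not overlap, but Cre 1 and Cre 2 lay close to flox 1 and only Cre 3 stood apart. Its log2 fold change, 0.91 ± 0.39, missed the threshold (edgeR adjusted p = 0.152) and was 0.35 without Cre 3. Cre 3 was also the library with the highest quiescent stellate markers. Their summed level was 2431 CPM there against 936 to 1513 CPM in the other libraries. Stellate activation markers summed to 7689 CPM in Cre 3 and 7183 CPM in Cre 2, against 3175 to 6179 CPM in the other libraries. The part of these markers in the Rdh10 value was not tested. The log2 ratio of Rdh10 to Dhrs3, formed from FPKM, was -2.66, -3.26 and -3.21 in flox libraries 1 to 3, respectively, and -2.03, -2.24 and -0.57 in Cre libraries 1 to 3. The ratio was higher in 3 of 3 Cre libraries than in any flox library, with a difference of 1.43 in log2 units between group means. The exact two-sided permutation test gave p = 0.10, the smallest that 3 libraries against 3 allow, and 0.175 when adjusted over the 7 ratios and shares computed. Without Cre 3 the difference was 0.91.

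Among the retinal dehydrogenases, which carry out the last step of synthesis, Aldh1a2 and Aldh1a1 were higher in Cre 1 and Cre 2 but did not pass. Aldh1a2 (chromosome 9, 71215789 to 71296243, plus strand) stood at 15.1, 8.96 and 9.85 CPM in flox libraries 1 to 3, respectively, and 32.7, 52.7 and 15.4 CPM in Cre libraries 1 to 3. The groups did not overlap, although Cre 3 exceeded flox 1 by little. It differed by 1.57 ± 0.45 in log2 (edgeR adjusted p = 0.0604, and 0.00440 in DESeq2). Aldh1a1 (chromosome 19, 20492715 to 20643465, plus strand) stood at 11.5, 6.35 and 8.50 CPM in flox libraries 1 to 3, respectively, and 28.1, 50.2 and 10.1 CPM in Cre libraries 1 to 3. Here Cre 3 lay within the flox range, so the groups overlapped. It differed by 1.74 ± 0.56 in log2 (edgeR adjusted p = 0.0782, and 0.00869 in DESeq2). Reads of Aldh1a1 may be shared with its close copy Aldh1a7, which had 0 to 18 counts.

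Both genes were lowest among the Cre libraries in Cre 3, as the mesothelial markers were by mean and by summed level. Without Cre 3 Aldh1a2 and Aldh1a1 reached 1.94 and 2.17 and passed (edgeR adjusted p = 0.0332 for each). Without Cre 2, they were at 1.12 and 1.15. With the mean of the mesothelial list as a covariate, Aldh1a2 was at 0.49 and Aldh1a1 at 0.27 (edgeR adjusted p = 0.431 and 0.653). That fit called 0 genes in the whole table, so missing the threshold there does not set these 2 genes apart. Mesothelial cells are known to express Aldh1a2, and neither gene is in that list. Portal fibroblast and smooth muscle markers were by summed level also lowest among the Cre libraries in Cre 3. They summed to 1040, 832 and 612 CPM in Cre libraries 1 to 3, against 284 to 417 CPM in flox. By mean log2 CPM their groups overlapped, at 1.89 to 2.68 in flox and 2.59 to 2.70 in Cre. The part of mesothelial RNA was not tested beyond these values, and that of portal fibroblasts was not tested.

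**Figure D2:**
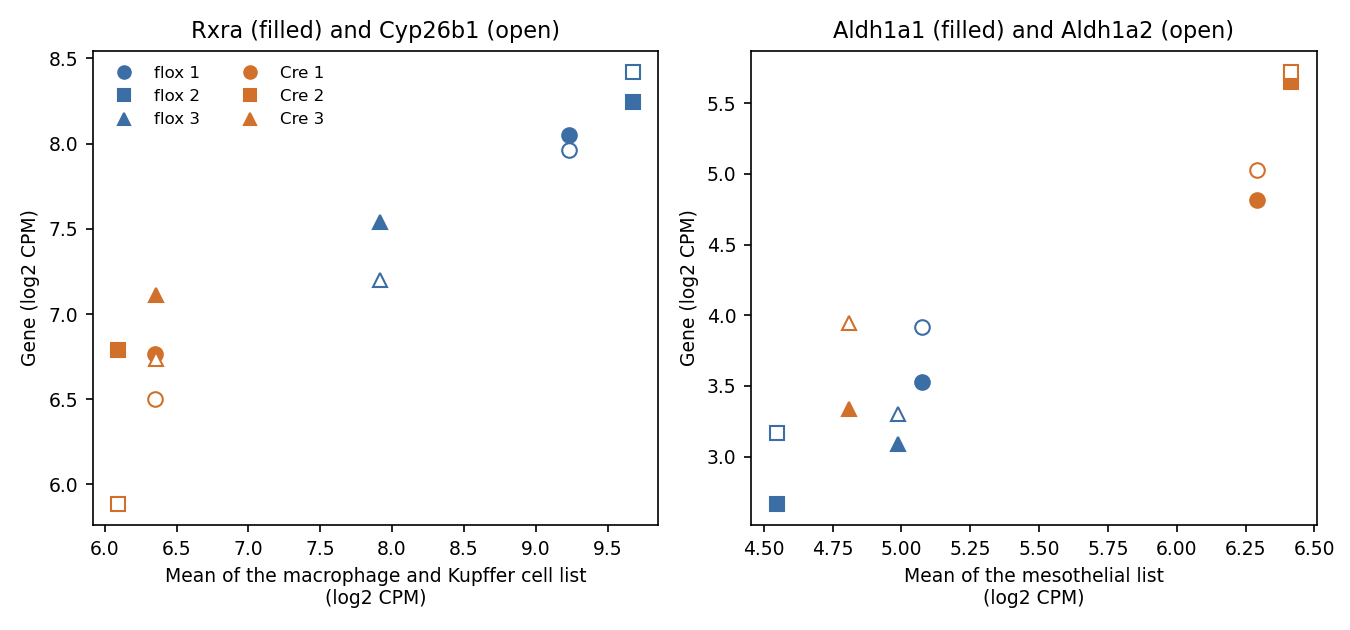
Left, log2 CPM of Rxra (filled) and Cyp26b1 (open) against the mean log2 CPM of the macrophage and Kupffer cell list in each library. Right, Aldh1a1 (filled) and Aldh1a2 (open) against the mean of the mesothelial list. On the left flox 3 lies between the other flox libraries and the Cre libraries, and on the right Cre 3 lies with the flox libraries.

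Aldh1a2 made up a similar share of the summed FPKM of Aldh1a1, Aldh1a2 and Aldh1a3 in every library. It was 55.4%, 54.3% and 56.8% in flox libraries 1 to 3, respectively, and 59.9%, 58.0% and 57.6% in Cre libraries 1 to 3. The difference of 3.01 percentage points was small, though the groups did not overlap (exact two-sided permutation p = 0.10, adjusted 0.175). Aldh1a3, which encodes the remaining retinal dehydrogenase, was uneven. In flox it took 6.40% to 16.8% of the sum. In Cre 1 it took 1.43% and in Cre 2 0.566%, whereas Cre 3, at 14.1%, was within the flox range. Between the groups it was at -0.55 ± 0.81 in log2 (edgeR adjusted p = 0.664), at -1.90 without Cre 3 and at -0.086 without Cre 2.

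**Figure D3:**
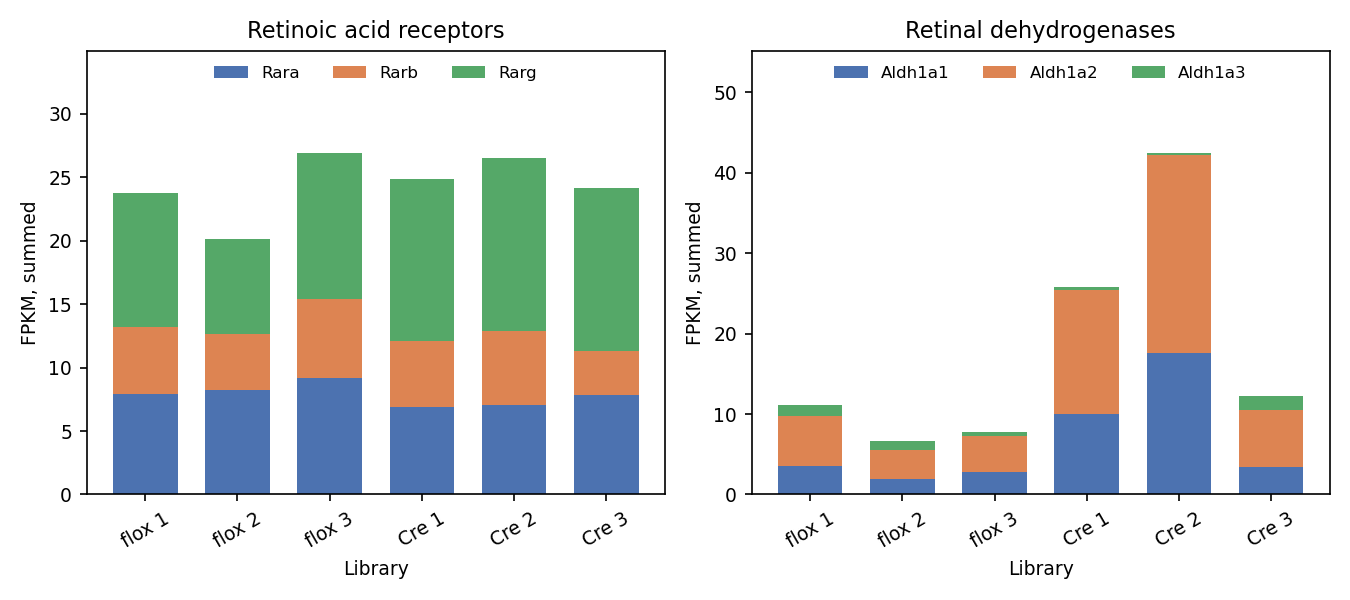
Stacked FPKM per library of the retinoic acid receptor genes (left) and of the retinal dehydrogenase genes (right), with both axes starting at 0. Rarg takes a larger part of the receptor sum in every Cre library than in any flox library, while the dehydrogenase sum is high in Cre 1 and Cre 2 alone.

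Breakdown of retinoic acid was represented by Cyp26b1 (chromosome 6, 84571414 to 84593908, minus strand), whose enzyme clears retinoic acid outside the hepatocyte. It had the lowest log2 fold change of the 3 genes that fell. It stood at 249.8, 342 and 147 CPM in flox libraries 1 to 3, respectively, and 90.7, 59.2 and 107 CPM in Cre libraries 1 to 3. The groups did not overlap, and flox 3 lay nearest to the Cre libraries. Flox averaged 246 ± 97.7 CPM (SD, n = 3) and Cre 85.5 ± 24.1 CPM, so the log2 fold change was -1.53 ± 0.35 (edgeR adjusted p = 0.0364), or 2.88 times lower. Its order within the flox group was that of the macrophage markers. With their mean as a covariate it was at 0.47 and no longer past the threshold (edgeR adjusted p = 0.693). That covariate separates the groups itself and left 2 genes called in the whole table.

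The other CYP26 genes were much lower. Cyp26a1 (chromosome 19, 37697798 to 37701536, plus strand), the retinoic acid-induced family member whose promoter repeat is shown above, had 183, 130 and 124 counts in flox libraries 1 to 3, respectively, and 63, 94 and 13 counts in Cre libraries 1 to 3. The groups did not overlap and Cre 3 was lowest, but the log2 fold change, -1.48 ± 0.65, missed the threshold (edgeR adjusted p = 0.160). Cyp26c1 had 5 to 21 counts, and its groups overlapped (0.07 ± 0.61, edgeR adjusted p = 0.951). Cyp26b1 and Cyp26a1 thus both lay lower in every Cre library, and only Cyp26b1 passed.

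**Figure D4:**
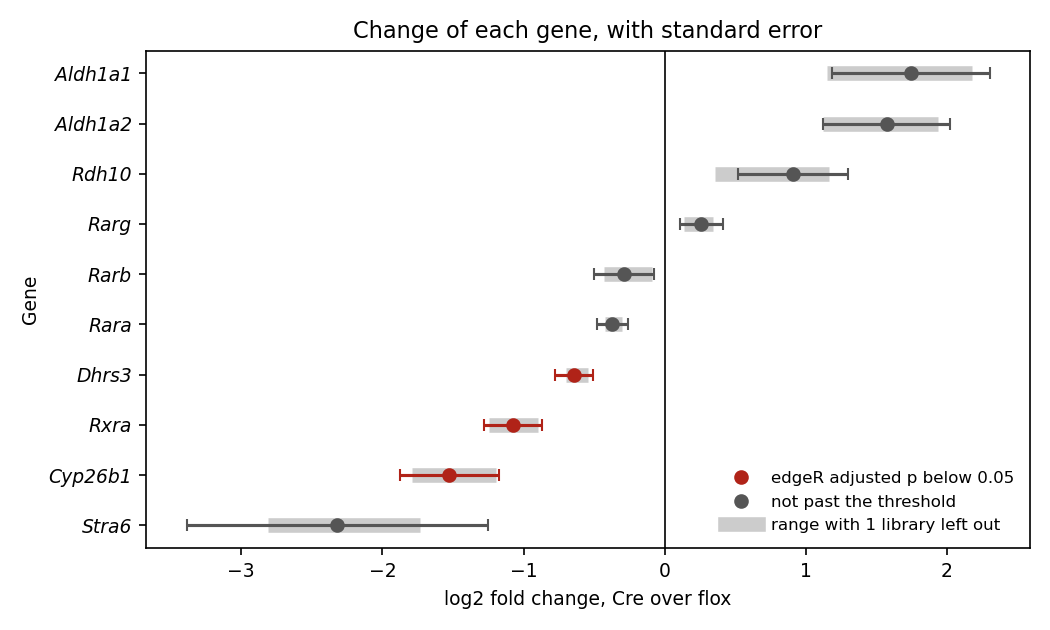
Log2 fold change, Cre over flox, of the 10 genes from edgeR with its standard error (whiskers) and the range of the value when 1 library is left out (grey). Red marks Dhrs3, Rxra and Cyp26b1, which passed at an adjusted p below 0.05, and no range crosses 0.

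The retinoic acid receptor genes did not pass the test. Rara (chromosome 11, 98927818 to 98974942, plus strand), the broadly expressed receptor, stood at 39.8, 42.3 and 42.4 CPM in flox libraries 1 to 3, respectively, and 30.1, 31.1 and 35.1 CPM in Cre libraries 1 to 3. Its groups did not overlap and its spread was small, but the log2 fold change of -0.37 ± 0.11 missed the threshold (edgeR adjusted p = 0.0632, and 0.0124 in DESeq2). With no composition scaling it was -0.22.

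Rarg (chromosome 15, 102234938 to 102257517, minus strand), a receptor prominent in mesenchymal cells, stood at 37.8, 27.4 and 37.9 CPM in flox libraries 1 to 3, respectively, and 39.6, 42.6 and 41.2 CPM in Cre libraries 1 to 3. The groups were separated by a narrow margin, with flox 2 standing below the rest (0.26 ± 0.15, edgeR adjusted p = 0.268, and 0.13 without flox 2). Rarb (chromosome 14, 16430839 to 16819156, minus strand), the receptor that retinoic acid itself induces, stood at 21.3, 18.5 and 23.3 CPM in flox libraries 1 to 3, respectively, and 18.2, 20.9 and 12.5 CPM in Cre libraries 1 to 3. Its groups overlapped (-0.29 ± 0.21, edgeR adjusted p = 0.370), and its value was -0.088 without Cre 3. Exons of Rarb overlap those of Top2b and Gm48162 on the opposite strand, and no label says whether counting used strand.

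The receptor genes were also compared as shares of their sum. Rarg made up 44.5%, 37.1% and 42.8% of the summed FPKM of Rara, Rarb and Rarg in flox libraries 1 to 3, respectively, and 51.4%, 51.2% and 53.3% in Cre libraries 1 to 3. Rara made up 33.4%, 40.8% and 34.1% in flox and 27.8%, 26.6% and 32.4% in Cre. Neither share overlapped between the groups, and neither difference passed after adjustment. The differences of 10.5 and -7.14 percentage points each gave an exact two-sided permutation p = 0.10, the smallest possible, and 0.175 when adjusted over the 7 ratios and shares. Without flox 2 the Rara difference was -4.78. The Rarb share overlapped between groups, at 22.1% to 23.1% in flox and 14.3% to 22.1% in Cre. These shares do not depend on how libraries are scaled.

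Rxra (chromosome 2, 27676440 to 27762957, plus strand), the shared partner of the receptors, fell. It stood at 265, 304 and 186 CPM in flox libraries 1 to 3, respectively, and 109, 111 and 138 CPM in Cre libraries 1 to 3. No Cre library reached the flox range, and flox 3 again lay nearest to it. Flox averaged 252 ± 59.7 CPM (SD, n = 3) and Cre 119 ± 16.5 CPM, so the log2 fold change was -1.08 ± 0.20 (edgeR adjusted p = 0.0260), or 2.11 times lower. Macrophages express Rxra, and the libraries with the highest macrophage markers, flox 2 and flox 1, also had the highest Rxra. With macrophage markers as a covariate (the mean of their list) Rxra was at 0.03 (edgeR adjusted p = 0.972). Because that mean separates the groups itself, group and macrophage content cannot be told apart here. Rxrb, which encodes a second retinoid X receptor, was at 16.3 ± 1.42 FPKM in flox and 15.2 ± 0.351 FPKM in Cre, and its log2 fold change, -0.25 ± 0.10, missed the threshold (edgeR adjusted p = 0.141). Rxrg had 6 counts in flox 2 and 0 in the other libraries, too few for the test.

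Stra6 (chromosome 9, 58063788 to 58153996, plus strand), the retinol uptake receptor, was low in every library. It had 14, 39 and 60 counts in flox libraries 1 to 3, respectively, and 11, 13 and 0 counts in Cre libraries 1 to 3. The count of 0 in Cre 3 allows up to 3 counts, or 0.0762 CPM before TMM scaling, and its two-sided exact 95% Poisson interval reaches 3.69 counts, both for counting error only. Flox 1, at 14 counts with an exact 95% Poisson interval of 7.65 to 23.5, was within counting error of Cre 1 and Cre 2. The intervals of flox 2 (27.7 to 53.3) and flox 3 (45.8 to 77.2) lay above those of Cre 1 (5.49 to 19.7) and Cre 2 (6.92 to 22.2). The groups did not overlap in CPM, by a narrow margin at flox 1. The log2 fold change, -2.32 ± 1.07, missed the threshold (edgeR adjusted p = 0.175). Stra6l, which encodes a related retinol-binding protein receptor, was more abundant, at 2.93 ± 1.86 FPKM in flox and 0.886 ± 0.271 FPKM in Cre. Its level in flox 3, 327 counts, lay between those of Cre 2 and Cre 3, so the groups overlapped (-1.91 ± 0.63, edgeR adjusted p = 0.0841).

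The wider retinoid pathway was described from 7 lists of other genes, 103 in all, of which 85 were tested. Of these, 5 rose and 12 fell (17 called, or 20%, against 15.3% of all genes), and the median log2 fold change was -0.08. Genes shared between lists, such as Nrip1, were counted once in these totals. The counts per list below stand beside 6.35% of all genes called higher and 8.94% called lower. Of 12 tested genes of retinoid uptake, binding and storage, 2 fell and 0 rose, with a median of -1.17. Lpl, the lipoprotein lipase that frees lipids and retinyl esters from chylomicrons, fell from 313 ± 114 to 88.1 ± 8.28 FPKM (-2.01 ± 0.32), and the lipoprotein receptor Scarb1 fell by 0.97 ± 0.20 on the log2 scale. The summed level of this list was 2070 CPM in flox 3 against 5038 and 5730 CPM in flox 1 and flox 2, and macrophage markers were likewise lowest of flox in flox 3. With those markers as a covariate, which itself separates the groups, Lpl was at -0.050 and Scarb1 at 0.15 (edgeR adjusted p = 0.966 and 0.832). Any macrophage part in these values was not tested. The fatty acid transporter Cd36 was at -1.61 ± 0.50 (edgeR adjusted p = 0.0718). The retinoic acid-binding protein Crabp2 was at 0.74 ± 0.79 and Lrat at -1.36 ± 1.07 (edgeR adjusted p = 0.538 and 0.399).

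Lipases that can hydrolyse retinyl esters had negative log2 fold changes in all 6 tested. Of these, 3 fell and 0 rose, with a median of -1.42. The lysosomal acid lipase Lipa (-2.20 ± 0.47), hormone-sensitive lipase Lipe (-1.06 ± 0.25) and adipose triglyceride lipase Pnpla2 (-0.82 ± 0.15) fell. Their list summed to 1112, 1356 and 417 CPM in flox libraries 1 to 3, lowest in flox 3 as the macrophage markers were. With those markers as a covariate Lipa was at 0.98, Lipe at 0.23 and Pnpla2 at -0.31 (edgeR adjusted p = 0.411, 0.836 and 0.693). This covariate separates the groups, and the macrophage part in the lipase values was not tested. Pnpla3 was at -1.87 ± 0.61 on 4 to 25 counts (edgeR adjusted p = 0.0836). Exons of Lipe overlap 4732471J01Rik on the opposite strand and those of Pnpla3 overlap Gm49513.

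Among 16 other tested retinol and retinal dehydrogenases and carotenoid-cleaving enzymes, 1 fell and 0 rose, with a median of -0.21. Bco2, a mitochondrial carotenoid oxygenase, fell from 4.47 ± 1.98 to 0.280 ± 0.0614 FPKM (-4.17 ± 0.45, edgeR adjusted p = 0.0226). Its exons overlap Gm47077 on the opposite strand. Bco1, the enzyme that cleaves beta-carotene to retinal, stood on the other side at 1.95 ± 0.55, with 23 to 38 counts in flox and 66 to 235 in Cre, and missed the threshold (edgeR adjusted p = 0.0580). Rdh14 was at -0.44 ± 0.14 and Aldh1a7 at -2.27 ± 1.05 (edgeR adjusted p = 0.0753 and 0.178). The 3 other breakdown genes tested missed the threshold, with Cyp2s1 at 2.33 ± 1.09 (edgeR adjusted p = 0.181).

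Of 12 tested genes for other retinoid X receptors and their partners, 2 fell and 0 rose, with a median of -0.26. Nr1h3, which encodes liver X receptor alpha, fell from 86.5 ± 26.0 to 16.7 ± 5.78 FPKM (-2.54 ± 0.37). Pparg, the adipogenic receptor linked to stellate quiescence, fell from 6.19 ± 2.87 to 1.44 ± 0.175 FPKM (-2.29 ± 0.43). The vitamin D receptor Vdr was at -1.63 ± 0.45 and Ppara, on 8 to 48 counts, at 1.54 ± 0.53 (edgeR adjusted p = 0.0534 and 0.0939). Both Nr1h3 and Pparg are also expressed by macrophages, whose markers had a median of -2.66. With those markers as a covariate Nr1h3 was at -0.68 and Pparg at 0.48 (edgeR adjusted p = 0.643 and 0.687). The covariate itself separates flox from Cre, and the part of macrophage RNA in these values was not tested. Exons of Nr1h3 overlap Gm13783.

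Of 14 tested coregulators of the receptors, 2 fell and 0 rose, with a median of -0.14. They were the coactivator Ncoa3 (-1.06 ± 0.17), whose exons overlap Sulf2 on the opposite strand, and the corepressor Nrip1 (-0.74 ± 0.12). Under the macrophage covariate, which separates the groups, they were at -0.13 and -0.37 (edgeR adjusted p = 0.820 and 0.545). Any macrophage part in these values was not tested. Ncoa1 was at -0.49 ± 0.16 and the corepressor complex subunit Tbl1x at 0.35 ± 0.10 (edgeR adjusted p = 0.0831 and 0.0623).

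**Figure D5:**
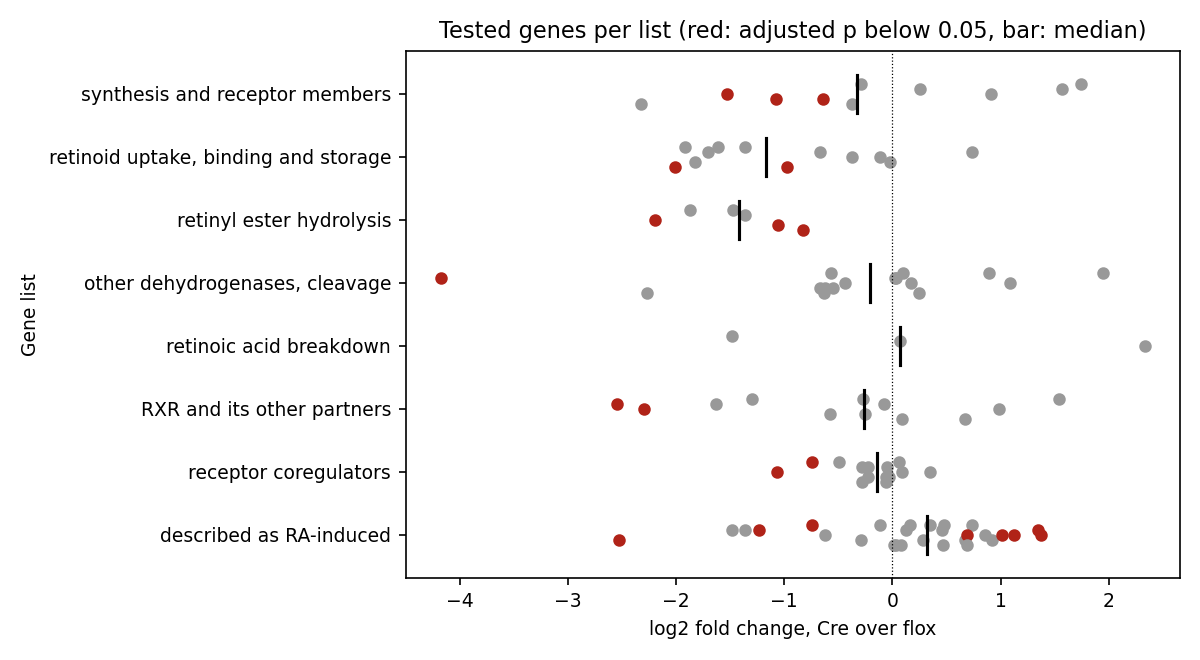
Log2 fold change, Cre over flox, of each tested gene in the retinoic acid gene set and in 7 further retinoid lists, with red points for an edgeR adjusted p below 0.05 and black bars at list medians. In the last list 5 genes rose and 3 fell, the breakdown list holds no call, and the calls of the other lists lie on the negative side.

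Genes described as induced by retinoic acid were called in both directions. Of 28 tested, 20 had a positive log2 fold change, and the median was 0.32. At the threshold 5 rose and 3 fell, against 6.35% and 8.94% of all genes. Those that rose included the transcription factor genes Gata6 (1.38 ± 0.26), from 7.67 ± 1.37 to 22.3 ± 7.09 FPKM, Hoxb2 (1.12 ± 0.17) and Meis1 (1.01 ± 0.26), and the cytoskeletal gene Rai14 (0.69 ± 0.17). The genes that fell were Tgm2, transglutaminase, from 589 ± 94.8 to 281 ± 36.6 FPKM (-1.23 ± 0.21), Rarres1 (-2.52 ± 0.58) and Nrip1. These genes answer to many other signals as well. Gata6 was highest in Cre 1 and Cre 2, as the mesothelial markers were. Under the macrophage covariate, which itself separates the groups, Tgm2 was at -0.33, Rarres1 at -0.25 and Nrip1 at -0.37. Of the genes that rose, Gata6 was then at 1.25, Hoxb2 at 0.98, Meis1 at 1.39 and Rai14 at 1.21. All of these missed the threshold in that fit, and any macrophage part in their values was not tested. Exons of Hoxb2, Tgm2, Gata6, Rai14 and Meis1 overlap those of other genes. Adjusted p-values of these 7 named genes in the main edgeR test, without a covariate, ran from 0.0237 to 0.0449.

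The genes whose pattern over the 6 libraries came closest to those that fell were found by the root mean square difference of centred log2 CPM, among 12094 other genes. For Rxra they included Tcirg1 (0.0407) and Ing4 (0.0571), against a spread of Rxra itself of 0.578. For Cyp26b1 they were Tbc1d9 (0.0806), Prxl2b (0.0811) and Gm40616 (0.0967), against 0.861. For Dhrs3 they were Ifit2 (0.0509), Afg1l (0.0607) and Kif3a (0.0741), against 0.345. These names are a description over 6 libraries only.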

How the data were processed

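The count table holds raw counts per gene symbol as deposited. A second table holds FPKM values made by the authors, which equal count over library total and 1 length per gene, without exception in the 11560 genes tried (relative tolerance 1e-06). Per-sample columns left unused numbered 0. GRCm38, mm10 and hg38 all appear in the submitters' processing notes, without a role. The aligner, counter, annotation and strand setting: not given in the sources used here. Positions and exon overlaps are from GENCODE M21 on GRCm38, and promoter windows from RefSeq (GRCm38.p6).

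Low counts were removed with filterByExpr (min.count 10, min.total.count 15). The main test, across all genes, was edgeR 4.0.16 (R 4.3.3, TMM, quasi-likelihood F-test, no covariate, two-sided), with Benjamini-Hochberg adjustment over 14795 genes and calls below 0.05. Standard errors were taken from F, as |log2 fold change|/√F. Alternatives were RLE factors, library totals, DESeq2 1.42.0, limma-voom (limma 3.58.1), other filters, leaving out single libraries, blocking on replicate number, limma-trend with FPKM pseudocounts of 1 and 0.1 before log2, and 2 marker-list means as covariates. Methods were tested on simulated data first. Ratios and shares of FPKM were compared by an exact permutation test over libraries.

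Named genes are the 10 genes, Lrat, Crabp2, Cyp26a1 and Aldh1a3, the 4 of lowest p in each retinoid list and every gene called there, the closest patterns, and a few markers. A few genes that this rule names are not reported here. Other named genes (Rxrb and Rxrg) were chosen after their values were seen. The members, lists and covariates were chosen with earlier results of these data known. Depth was 37273142 to 41006722 counts, so 3 counts correspond to 0.0732 to 0.0805 CPM before TMM scaling.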

Additional observations from a re-analysis of the deposited data

How the results depend on the processing

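The calls depended on which libraries entered the edgeR test. Leaving out 1 library gave 0 to 5329 genes called over the whole table (2263 with all 6), 0 to 3 of the 10 retinoic acid genes and 0 to 32 of the other retinoid genes. The count was 0 for all 3 sets without flox 1, flox 2, Cre 1 or Cre 2. In these fits, respectively, 3720, 3562, 3593 and 3978 genes were at an unadjusted p below 0.05, of 15229, 15220, 15264 and 15255 tested. Without flox 3, 5329 genes were called, and without Cre 3, 1369, with Aldh1a1 and Aldh1a2 higher and Rxra lower among the 10. DESeq2 called 4334 genes, 6 of the 10 and 29 other retinoid genes, and limma-voom called 1404 genes. Same-numbered libraries did not deviate together (r = -0.03, -0.10 and -0.06), and differently numbered ones gave r of -0.03 to 0.10. These correlations cannot settle whether libraries were prepared as pairs, which no label states. A replicate block gave 0, 0 and 0 calls, with 4296, 5 and 26 at an unadjusted p below 0.05.

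With macrophage markers as a covariate 2 genes were called, 0 of the 10 and 0 others (unadjusted 1984, 1 and 17), and with the mesothelial mean 0, 0 and 0 (unadjusted 2448, 5 and 20). The log2 fold change then had the other sign, under the macrophage covariate, for Rxra (0.033), Cyp26b1 (0.47), Rarg (-0.27), Lrat (6.70), Aldh1a3 (2.33), Scarb1 (0.15), Cd36 (1.71), Stra6l (2.53), Lipa (0.98), Lipe (0.23), Cyp26c1 (-1.11), Pparg (0.48), Vdr (0.25), Ppara (-0.058) and Ncoa1 (0.36). Under the mesothelial covariate it did for Aldh1a3 (0.35), Cyp2s1 (-1.38) and Cyp26c1 (-0.30). Leaving out 1 library moved Cyp26c1 between -0.29 and 0.49 and Crabp2 between -0.31 and 1.35. The cause was not tested. Of 169 values for the 10 genes under the alternatives, 135 kept direction and side of the threshold, 24 lost the call, 7 gained it and 3 changed sign. The values that kept their side include those of genes that stayed uncalled. Of 17 alternatives each, Dhrs3 passed in 6, Rxra in 10 and Cyp26b1 in 9. Counts of Stra6, Lrat and Crabp2 limit their precision.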
